A study of Homo sapiens with 6 samples.

Results

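The sestrins are a family of 3 stress-inducible proteins, and the 3 genes that encode them, SESN1, SESN2 and SESN3, were taken by symbol from the 46427 genes of the expression table. SESN1 was chosen by its read counts, which were higher after MALAT1 knockdown in each cell line, so its change is given as a description without a test, and its paralogues are set beside it. Total RNA had been sequenced from 6 cultures of non-small cell lung cancer (NSCLC) cells, with 1 control and 1 si-MALAT1 library for each of 3 established cell lines. H460 is a large cell lung carcinoma line, H1299 an NSCLC line from a lymph node metastasis and A549 a lung adenocarcinoma line. The si-MALAT1 cells had received a small interfering RNA against the long noncoding RNA MALAT1, and the labels call the control cells non-treated, while the methods also describe a control siRNA and do not name which control was sequenced. Read counts summed over the genes of the table ran from 42506818 to 68515992 per library. With 1 library per line and condition, p-values from a fit over the lines rest on how far the change after si-MALAT1 differs between lines. That spread also holds differences between cultures, which cannot be told apart from it. The tests between lines use the same spread.

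Sestrins hold back the growth kinase complex mTORC1. SESN1 and SESN2 bind leucine, and without it they hold GATOR2, which otherwise keeps GATOR1 from switching off the Rag GTPases that bring mTORC1 to the lysosome. Sestrins also act with the energy sensor AMPK and with peroxiredoxins in the response to peroxides. SESN1 and SESN3 are known targets of FOXO factors and SESN2 of ATF4 and NRF2.

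The genes lie on 3 chromosomes of GRCh38. SESN1 (Gene ID 27244) spans chromosome 6 from 108984309 to 109094846 on the minus strand. Its 3 annotated transcripts have 10 exons each and share all but the first exon and the length of the last. One long transcript of 5664 bases, NM_014454, begins at the far upstream start and encodes 551 residues. The short transcripts of 2723 and 2681 bases, NM_001199934 and NM_001199933, begin at internal starts and encode 426 and 492 residues. SESN2 (83667) spans chromosome 1 from 28259452 to 28282491 on the plus strand, with a coding transcript of 3462 bases that encodes 480 residues and a noncoding one of 3377 bases. SESN3 (143686) spans chromosome 11 from 95165513 to 95232536 on the minus strand, with 4 transcripts of 9279 to 9563 bases. The longest, NM_144665, encodes 492 residues and begins at 95231202, downstream of the starts of the other 3.

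The sequences just upstream of the start sites are shown because the 3 genes are known to answer to different factors and because the SESN1 transcripts begin at separate promoters. Of the 6 windows, 5 were taken from RefSeq on GRCh38.p14, and the one before NM_144665 was read from the hg38 genome at the annotated start. They cover up to 250 bases before a start and leave out bases of annotated exons on the same strand. They are SESN1 before the long transcript (chr6:109094847-109095096, minus strand), before NM_001199933 (chr6:109009556-109009802, minus strand) and before NM_001199934 (chr6:109008989-109009238, minus strand), SESN2 (chr1:28259268-28259451, plus strand), SESN3 before NM_144665 (chr11:95231203-95231452, minus strand) and SESN3 before the upstream start of NM_001271594 (chr11:95232537-95232725, minus strand). Capitals mark a match to the NRF2 motif in the second SESN1 window.
SESN1 long: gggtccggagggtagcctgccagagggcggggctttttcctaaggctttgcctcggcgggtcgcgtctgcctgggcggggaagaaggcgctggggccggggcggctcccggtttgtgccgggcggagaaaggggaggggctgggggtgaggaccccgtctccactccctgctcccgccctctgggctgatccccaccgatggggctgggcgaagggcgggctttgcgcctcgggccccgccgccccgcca
SESN1 short NM_001199933: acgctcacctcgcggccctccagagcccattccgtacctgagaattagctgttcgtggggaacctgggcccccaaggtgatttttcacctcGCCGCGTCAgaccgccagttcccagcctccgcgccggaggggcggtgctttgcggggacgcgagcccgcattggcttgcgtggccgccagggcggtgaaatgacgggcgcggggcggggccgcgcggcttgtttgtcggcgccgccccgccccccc
SESN1 short NM_001199934: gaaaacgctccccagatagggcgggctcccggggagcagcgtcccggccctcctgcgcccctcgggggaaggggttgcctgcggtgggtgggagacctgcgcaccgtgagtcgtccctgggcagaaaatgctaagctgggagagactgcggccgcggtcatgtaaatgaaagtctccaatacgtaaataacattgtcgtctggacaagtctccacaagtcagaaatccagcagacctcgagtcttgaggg
SESN2: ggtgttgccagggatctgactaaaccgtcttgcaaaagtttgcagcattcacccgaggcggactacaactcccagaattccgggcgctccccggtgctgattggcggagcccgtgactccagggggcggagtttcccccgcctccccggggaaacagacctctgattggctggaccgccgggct
SESN3 NM_144665: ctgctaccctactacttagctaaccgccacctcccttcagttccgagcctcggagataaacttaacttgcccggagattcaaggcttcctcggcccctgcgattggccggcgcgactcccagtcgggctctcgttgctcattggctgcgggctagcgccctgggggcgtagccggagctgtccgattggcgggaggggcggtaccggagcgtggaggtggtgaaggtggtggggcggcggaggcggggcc
SESN3 NM_001271594: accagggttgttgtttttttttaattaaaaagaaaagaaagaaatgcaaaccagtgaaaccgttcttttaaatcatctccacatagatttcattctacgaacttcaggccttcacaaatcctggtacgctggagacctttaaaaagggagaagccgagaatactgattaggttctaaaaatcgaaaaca

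The motifs were chosen after the windows had been read, and both strands of the full windows, which run on to 50 bases past the start, were searched. The NRF2 motif TGACNNNGC matched once, in the window before NM_001199933, and 13.3% of 35116 promoter windows of that length held it. The match lay 159 bases upstream of the start site of that RefSeq window, which is not exactly the annotated start. The FOXO motif TGTTTAC and the ATF4 motif TGATGNAA were in none of the 6 windows, against 3.42% and 3.62% of all windows. Only the letters of these windows were searched, other forms of the FOXO and ATF4 motifs were not, and binding was not measured. The SESN3 sequence before NM_144665 had a GC content of 66.4% and 2 GC boxes (GGGCGG), a motif that 45.0% of all windows held and every SESN1 and SESN2 window held at least once. The SESN3 sequence before the upstream start had a GC content of 35.4% and no GC box, against 60.4% to 74.4% in the other 5.

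MALAT1 was lower after the siRNA in all 3 lines. Its read count went from 231045 to 43858 in H460, 407551 to 47935 in H1299 and 93747 to 14447 in A549, which gave log2 fold changes of -2.32, -2.96 and -2.84 (edgeR quasi-likelihood test, blocked on the line, Benjamini-Hochberg adjusted p = 0.0381). Keratins of epithelial cells were read in every library, with KRT8 at 11408 reads or more. KRT19 was at only 21 and 17 reads in H1299 and 44 and 121 in A549. The epithelial marker CDH1 had 13 and 11 reads in H460 and 2 and 12 in H1299, against 4693 and 7373 in A549. The 5 epithelial markers summed to 480.0 to 4730.0 TPM in the controls and 458.0 to 2080.0 after si-MALAT1. The 4 markers of other cells summed to 0.13 to 1.36 and 0.504 to 2.12 TPM, with PTPRC of leukocytes at 0 in all 6 libraries and the collagen gene COL1A1 higher after si-MALAT1 in each line, from 175 to 472, 38 to 144 and 267 to 469 reads. EPCAM was also higher in each line, from 30 to 73, 23 to 43 and 196 to 485 reads, while KRT8 and KRT18 had log2 fold changes of -1.16 and -1.23 in A549. Their part in the results was not tested. In RNA from whole cultures, a change in the share of cells of a kind and a change in RNA per cell cannot be told apart.

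SESN1 was higher after si-MALAT1 in all 3 lines. Read counts went from 617 to 1138 in H460, 977 to 1575 in H1299 and 833 to 2359 in A549. After scaling with RLE size factors over the 6 libraries and adding 1, the log2 fold changes (si-MALAT1 minus control) were 0.96, 0.82 and 1.36, or 1.05 ± 0.28 (SD, n = 3 lines). The scaled counts were thus 1.95-fold, 1.76-fold and 2.56-fold as high as in the controls, and 1.19% of the 17834 genes with a read in each library were at least 1.5-fold higher in the 3 lines. This is the pattern for which SESN1 was chosen.

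SESN2, the sestrin best known as a leucine sensor, was also higher in each line, but by unequal amounts. Read counts went from 1997 to 2468 in H460, 1134 to 1758 in H1299 and 334 to 1040 in A549. The log2 fold change was 0.39 in H460 (exact 95% Clopper-Pearson interval from the reads of both libraries, 0.30 to 0.47). For H1299 it was 0.76 (0.66 to 0.87) and for A549 it was 1.49 (1.31 to 1.68). These intervals cover counting error only. On the log2(TPM + 1) scale the H460 value was 0.23. SESN2 passed 1.5-fold in H1299 and A549, where 11.7% and 11.5% of genes did so upwards, and not in H460, where 9.5% did. Its mean log2 fold change was 0.88 ± 0.56 (SD, n = 3 lines), or 0.57 without A549. It did not pass the paired edgeR test (adjusted p = 0.171) and passed DESeq2's Wald test on the same design (adjusted p = 0.0109). The edgeR test called 0.0% of 19122 genes higher and 0.00523% lower, which was MALAT1 alone, and DESeq2 called 4.15% of 13561 genes higher and 4.25% lower. At an unadjusted p under 0.05, edgeR had 1411 genes higher and 1452 lower.

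SESN3 did not move one way across the lines. Read counts went down from 14319 to 9533 in H460 and 1924 to 909 in H1299, and up from 318 to 455 in A549. H460 thus had a log2 fold change of -0.51 (95% interval -0.54 to -0.47), H1299 one of -0.95 (-1.07 to -0.84) and A549 one of 0.37 (0.16 to 0.58). Only the H1299 change passed 1.5-fold, where 11.4% of genes were lower by that much, as were 10.3% in H460. On log2(TPM + 1) the H460 change, at -0.61, passed as well. Over the lines it averaged -0.36 ± 0.67 (SD, n = 3 lines), or -0.07 without H1299 and -0.73 without A549. SESN3 passed neither edgeR's quasi-likelihood test (adjusted p = 0.501) nor DESeq2 (adjusted p = 0.444).

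**Figure D1:**
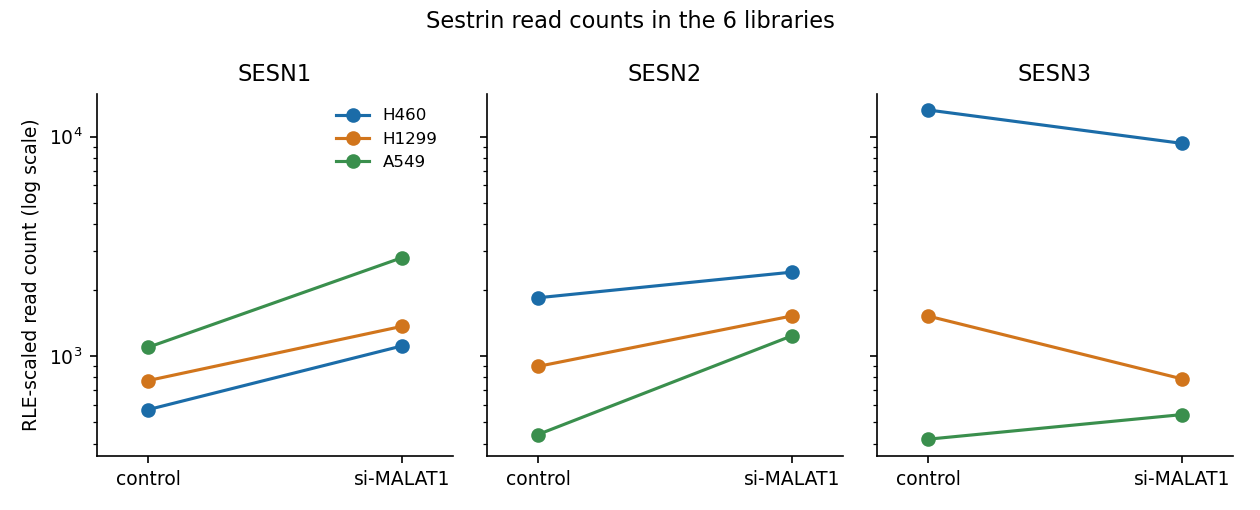
RLE-scaled read counts on a log axis for the control and si-MALAT1 library of each cell line, with a line joining the 2 libraries of a line. SESN1 and SESN2 are higher after si-MALAT1 in the 3 lines, while SESN3 is lower in H460 and H1299 and higher in A549.

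Set side by side within a line, SESN1 exceeded SESN3 in log2 fold change by 1.47 in H460, 1.77 in H1299 and 0.98 in A549, a mean difference of 1.41 ± 0.40 (SD, n = 3 lines). SESN2 exceeded SESN3 by 0.89, 1.71 and 1.12, a mean of 1.24 ± 0.42. Between SESN1 and SESN2 the difference was 0.58 in H460, 0.06 in H1299 and -0.14 in A549, a mean of 0.17 ± 0.37 that was smaller than its spread. So A549, where SESN1 and SESN2 had their largest log2 fold changes, was also the line where SESN3 was higher. No test was run on these differences, since SESN1 was chosen for its change and 3 lines are few. Among 14464 genes with a mean count of at least 50, the log2 fold change of SESN2 was above that of 86.3% (H460), 94.8% (H1299) and 99.2% (A549) of genes. SESN3 was above 8.86%, 2.98% and 83.0% of them.

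**Figure D2:**
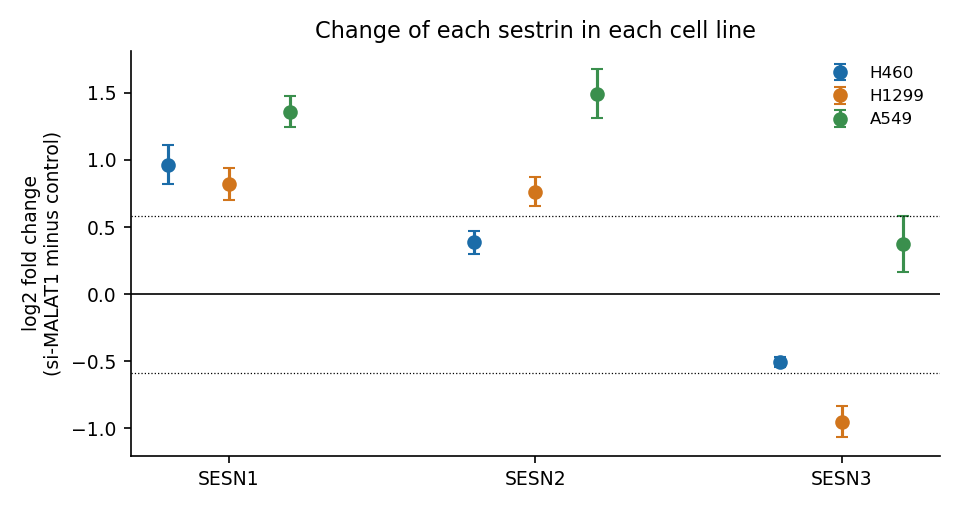
Log2 fold change of each sestrin in each cell line (points), with exact 95% intervals for counting error (bars) and dotted lines at 1.5-fold in either direction. The SESN2 points run from 0.39 to 1.49 and the SESN3 points from -0.95 to 0.37.

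Which sestrin was the most abundant differed between the lines. TPM, a level scaled for transcript length and depth, allows the genes to be set beside each other. In the H460 control, SESN3 had 25.7 TPM, SESN2 9.90 and SESN1 3.14, so that SESN3 held 66.4% of the summed sestrin TPM. After si-MALAT1 the order was the same, at 16.5, 11.8 and 5.89 TPM. In H1299, SESN2 led with 5.68 TPM in the control, where SESN1 had 3.78 and SESN3 3.48. After si-MALAT1, H1299 had 10.1 TPM of SESN2, 6.57 of SESN1 and 1.88 of SESN3. A549 had the reverse order to H460, with 7.66 TPM of SESN1, 2.76 of SESN2 and 0.949 of SESN3 in the control, and 21.1, 7.70 and 1.22 TPM after si-MALAT1.

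The summed level of the 3 genes was lower after si-MALAT1 in H460 and higher in the other lines. It went from 38.8 to 34.2 TPM in H460, where the lower SESN3 outweighed the gain of its paralogues, from 12.9 to 18.5 TPM in H1299 and from 11.4 to 30.0 TPM in A549. The ratio of the sums was 0.881, 1.43 and 2.64 in TPM and 0.97, 1.38 and 2.69 in FPKM, so that in H460 the sum was nearly level on the second scale. The order of the 3 genes was the same in both libraries of each line, and H1299 control, where the highest gene had 1.63 times the TPM of the lowest, had the most even levels.

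**Figure D3:**
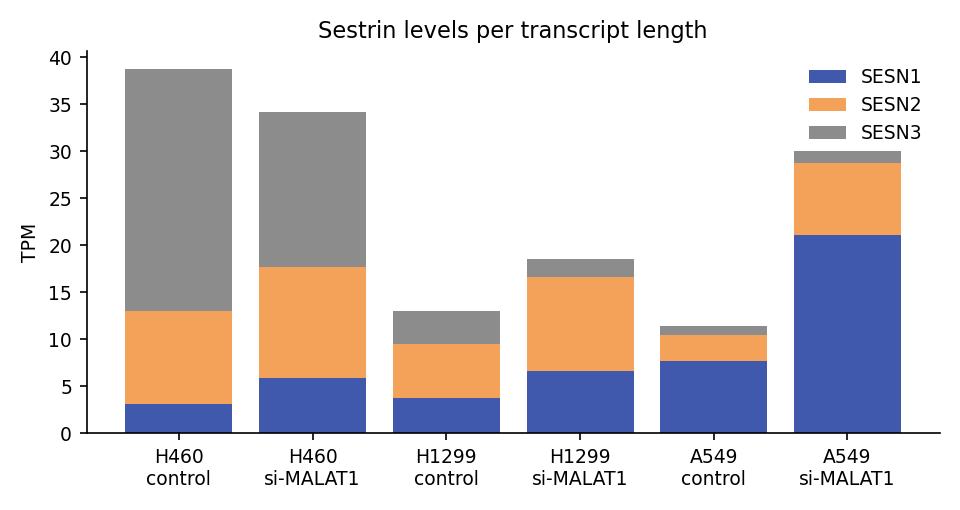
Stacked TPM of SESN1, SESN2 and SESN3 in each of the 6 libraries, starting at 0. SESN3 fills most of the H460 control bar and SESN1 most of both A549 bars, and the summed level goes from 38.8 to 34.2 TPM in H460 and from 11.4 to 30.0 TPM in A549.

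The difference between the lines was tested with the treatment as a term, on 2 libraries per line that differ in treatment. SESN3 was 10.0-fold higher in H460 than in H1299 (edgeR quasi-likelihood test, Benjamini-Hochberg adjusted p = 0.000381) and 22.6-fold higher than in A549 (adjusted p = 0.000255), and 2.26-fold higher in H1299 than in A549 (adjusted p = 0.0200). SESN2 followed the same order of lines with smaller gaps. It was 1.84-fold higher in H460 than in H1299 (edgeR adjusted p = 0.0298, or 0.0602 without the filter on low counts) and 2.82-fold higher than in A549 (adjusted p = 0.00701), while its 1.53-fold gap between H1299 and A549 did not pass (adjusted p = 0.10). SESN1 had the opposite order. It was 2.22-fold lower in H460 than in A549 (edgeR adjusted p = 0.00385) and 1.73-fold lower in H1299 than in A549 (adjusted p = 0.0113), and H460 and H1299 were not separated (1.28-fold, adjusted p = 0.131). Differences between lines were common, since 52.6% of genes were called for the H460 and H1299 pair, 38.2% for H460 with A549 and 48.9% for H1299 with A549.

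The SESN1 gene combines a long and 2 short transcripts, and their inferred balance differed between the lines. The deposited tables give no transcript values here, but the ratio of a gene's read count to its FPKM, which divides by transcript length, gives the mean length of the transcripts counted. On genes with 1 annotated transcript, all 1956 to 2350 genes tested per library came within 10% of the annotated length. Since FPKM is itself computed with that length, this shows only that the ratio returns a length. It does not test how reads were assigned among the transcripts of 1 gene. By this measure, the SESN2 reads came from transcripts of 3456 to 3464 bases and the SESN3 reads from 9551 to 9586 bases in every library, close to their main coding transcripts. For SESN1 the mean length went from 3371 to 3190 bases in H460, 4475 to 4763 in H1299 and 3109 to 2872 in A549. The share of SESN1 FPKM on the long transcript thus went from 22.6% to 16.5% in H460, whereas H1299 went from 59.8% to 69.6% and A549 from 13.7% to 5.7%. By this split, H1299 was the line where the long transcript prevailed. The long transcript differs in its first exon and in a last exon of 3322 against 1194 bases, and the mean length does not tell these apart. ARMC2 overlaps that last exon on the other strand and had 309 and 209 reads in H1299, against 99 to 156 in the other lines. Whether reads of ARMC2 entered the split was not tested.

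By the same split, the higher SESN1 level after si-MALAT1 lay in different transcripts as well. In A549 the short transcripts went from 4.86 to 14.9 FPKM and the long one from 0.77 to 0.91 FPKM. In H460 the short transcripts went from 1.79 to 4.00 FPKM and the long one from 0.52 to 0.79. In H1299 the short transcripts went from 1.12 to 1.42 FPKM and the long one from 1.68 to 3.25. The short transcripts made up 98.6% of the gain in A549, 89.1% in H460 and 16.0% in H1299. The mean length does not tell the 2 short transcripts apart, since they are nearly as long as each other. The split rests on the authors' assignment of reads to transcripts that share most exons, it has no counting interval, and it was chosen after seeing the data.

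**Figure D4:**
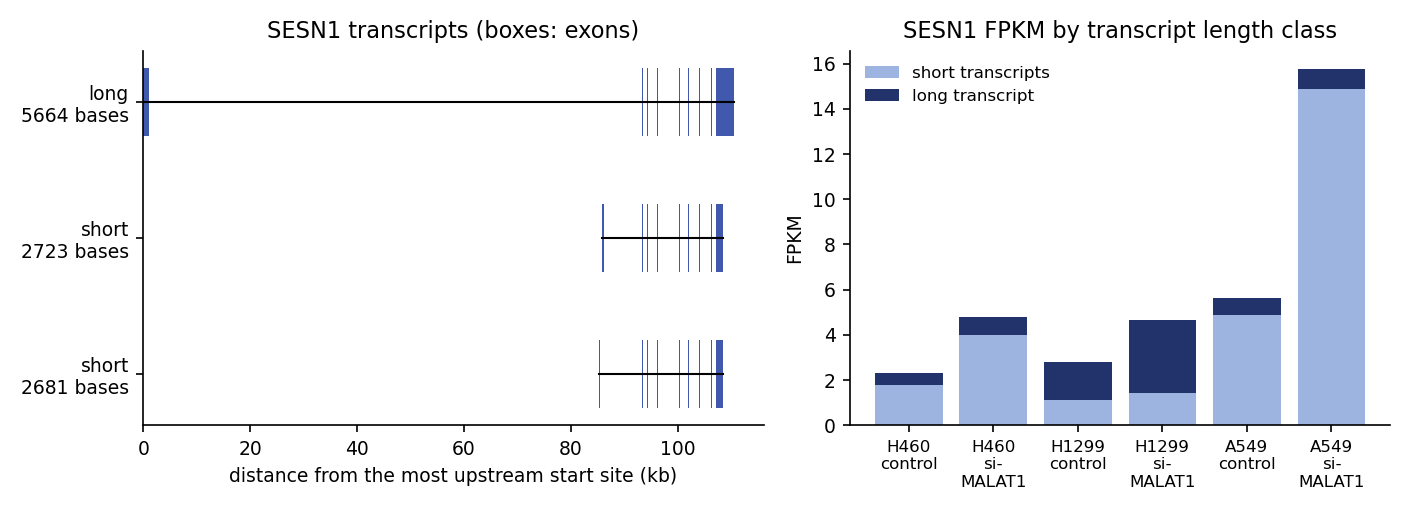
Left, exons (boxes) of the 3 annotated SESN1 transcripts by distance in kb from the most upstream start site. Right, SESN1 FPKM in each library, split into short and long transcripts by the mean transcript length, with the short transcripts at 14.9 FPKM after si-MALAT1 in A549 and the long one at 3.25 FPKM in H1299.

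None of the genes next to the sestrins passed 1.5-fold in the same direction in the 3 lines. Few genes did, 1.19% of all upwards and 1.28% downwards. CEP57L1 (a centrosomal protein family member) begins 316 bases from the far SESN1 start on the other strand, and its log2 fold changes were 0.26 in H460, -0.39 in H1299 and 0.04 in A549. FOXO3, a factor known to induce sestrins and the nearest protein-coding gene on the other side that does not overlap SESN1, at 299534 bases, had -0.36, 0.27 and -0.47. ARMC2 overlaps the 3′ end of SESN1 by 4782 bases on the other strand and had 0.73, -0.43 and -0.22, on 99 to 309 reads per library. Whether the counting used the strand is not given in the sources used here. Around SESN2, ATP5IF1 (an inhibitor of the mitochondrial ATP synthase) had 0.50, 0.00 and 0.15, and the Mediator subunit gene MED18 0.22, -0.02 and 0.08. Around SESN3, ENDOD1 had 0.09, 0.34 and 0.36 and FAM76B 0.37, 0.01 and 0.21. The lncRNA LOC100129203, which overlaps SESN3 by 2351 bases on the other strand, had 0.90, -0.06 and 0.97 on 7 to 110 reads.

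The wider network was described with 11 lists of 113 genes, of which all but 4 had a read in every library. Of those with reads, 4 were at least 1.5-fold higher in the 3 lines and 0 lower, against 1.19% and 1.28% of all genes. By edgeR's paired test 0 members passed in either direction, with 15 higher and 14 lower at an unadjusted p under 0.05, where 7.38% and 7.59% of all genes were. DESeq2 called 12 members higher and 7 lower, against 4.15% and 4.25% of all genes. The median log2 fold change over the lists was 0.02 in H460, 0.10 in H1299 and 0.00 in A549, next to 0.02, 0.02 and 0.01 over all genes.

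Among the 11 transcription factors known to induce sestrins, TP63 alone was at least 1.5-fold higher in the 3 lines, on few reads. TP63, best known in epithelial development, went from 2 to 18 reads in H460, 2 to 5 in H1299 and 47 to 304 in A549. Its paralogue TP73 had log2 fold changes of 0.61, -0.46 and 1.46. ATF4, the factor of the amino acid response, had -0.17, -0.60 and -0.84 on counts. It was called lower by DESeq2 (adjusted p = 0.0225) but not by edgeR (adjusted p = 0.192). In TPM, ATF4 went from 209.1 to 165.0 in H460, 84.66 to 84.01 in H1299 and 111.9 to 85.66 in A549. On that scale ATF4 was thus nearly level in H1299. XBP1, a factor of the unfolded protein response, had -0.53, 0.11 and 0.63.

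A list of 16 stress and cell cycle genes had medians of 0.19, 0.08 and 0.02, with 6 genes above 0 and 4 below 0 in all 3 lines, against 21.4% and 18.8% of all genes. One of them, TP53INP1, which encodes a stress protein that also acts in autophagy, was at least 1.5-fold higher in each line. It went from 615 to 1400 reads in H460, 3526 to 8732 in H1299 and 1383 to 4714 in A549, log2 fold changes of 1.27, 1.44 and 1.62 (edgeR adjusted p = 0.0734, DESeq2 1.1e-20). It was, like SESN1, higher in H1299 as well as in the other lines. TP53I3, an oxidoreductase gene, had 0.38, 0.61 and 0.27 and rose in DESeq2 (adjusted p = 0.0487, edgeR 0.207). Of the others only MDM2, a ubiquitin ligase gene, was called by DESeq2, with log2 fold changes of -0.36, -0.31 and -0.37 (adjusted p = 0.0121, edgeR 0.204). It was chosen for naming after its values were seen. The antiproliferative gene BTG2 had 0.68, 0.10 and 0.76, and it was 14.1-fold lower in H1299 than in H460 (edgeR adjusted p = 9.87e-05). PHLDA3, an inhibitor of AKT, had 6 and 17 reads in H1299 and 986 to 2018 in the other lines.

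FOXO targets had the highest medians of the lists in H1299 and A549, 0.79 and 0.41, and 0.26 in H460. Of the 10 targets, 8 had reads in all libraries. PIK3IP1, an inhibitor of PI3 kinase, went from 76 to 274 reads in H460, 425 to 637 in H1299 and 140 to 445 in A549, log2 fold changes of 1.92, 0.71 and 1.52 (edgeR adjusted p = 0.120, DESeq2 0.00132). The thioredoxin inhibitor TXNIP had 16330 and 32213 reads in H460 and 89 and 195 in A549, and it was listed at 0 in both H1299 libraries. The repressor gene BCL6 had 0.35, 1.08 and 0.68 (edgeR adjusted p = 0.159, DESeq2 0.0171). In the other direction, the insulin receptor gene INSR had -0.50, -0.69 and -0.75 (edgeR adjusted p = 0.0977, DESeq2 0.000516). DESeq2 called 5 FOXO targets higher and 2 lower, next to 4.15% and 4.25% of all genes, and those not yet given are CCNG2 and CDKN1B, both brakes of the cell cycle, and SOD2, the mitochondrial superoxide dismutase, which are named after their values were seen.

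ATF4 targets had their lowest median in H1299, a log2 fold change of -0.93, where 6 of 11 were at least 1.5-fold lower, as were 11.4% of all genes. All 3 lines had negative values for 4 of the 11, as for 18.8% of all genes. The medians were -0.06 in H460 and -0.14 in A549. The asparagine synthetase gene ASNS went from 10841 to 3244 reads in H1299, with log2 fold changes of -0.28, -1.61 and -0.40. The cystine transporter gene SLC7A11 had -0.15, -1.86 and -0.90 (edgeR adjusted p = 0.235, DESeq2 0.0176) and the leucine transporter gene SLC7A5 -0.54, -1.30 and -0.44 (edgeR adjusted p = 0.157, DESeq2 0.00520). CHAC1, which degrades glutathione, had -0.06, -0.93 and -0.63. SESN2, itself a known ATF4 target, was higher in H1299 by 0.76. The stress gene NUPR1 was at least 1.5-fold higher in the 3 lines, on 8 to 37, 2 to 4 and 51 to 149 reads.

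None of the 5 genes of GATOR2, the complex to which sestrins bind, passed 1.5-fold in any line. Per line, 9.5% to 11.7% of all genes were higher by that much and 10.3% to 11.4% lower. The largest mean size of change in GATOR2 was that of SEH1L, with log2 fold changes of -0.10, -0.35 and -0.42. WDR24 had 0.09, -0.09 and -0.40, WDR59 -0.10, 0.30 and 0.14 and MIOS 0.27, 0.11 and 0.16. Of the 7 genes of GATOR1 and of KICSTOR, its anchor on the lysosome, 0 passed in the 3 lines. That is near the share of all genes, 1.19% higher and 1.28% lower. C12orf66, the KICSTOR gene also called KICS2, had -0.35, -0.63 and -0.23. The GATOR1 subunit NPRL3 had -0.51, 0.53 and 0.00, and among other KICSTOR genes KPTN had 0.15, 0.37 and 0.21.

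Of the 5 genes of other amino acid sensors, 3 had a positive log2 fold change in the 3 lines, as did 21.4% of all genes. DESeq2 called those 3 higher, next to 4.15% of all genes. BMT2, the S-adenosylmethionine sensor also called SAMTOR, had 0.47, 1.30 and 0.86 (edgeR adjusted p = 0.120, DESeq2 0.00149). The arginine sensor genes CASTOR1 and CASTOR2 had 0.50, 1.54 and 0.50 (edgeR adjusted p = 0.204, DESeq2 0.0434) and 0.43, 0.50 and 0.31 (edgeR adjusted p = 0.177, DESeq2 0.0133). LARS1, the leucyl-tRNA synthetase gene, had -0.01, -0.49 and -0.28. Beside SESN1 and SESN2, the genes of CASTOR1, CASTOR2 and SAMTOR thus also had higher values in each line, though none passed edgeR.

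Further down the pathway, 0 of 12 genes of the Rag, Ragulator and folliculin group passed 1.5-fold in the 3 lines. Of all genes, 1.19% did so upwards and 1.28% downwards. FNIP1, a partner of folliculin, had 0.27, 0.53 and 0.52 (edgeR adjusted p = 0.176, DESeq2 0.0151). RRAGC, a Rag GTPase gene, had 0.06, 1.10 and -0.11, its paralogue RRAGD 0.08, 0.36 and 0.57 and the Ragulator gene LAMTOR1 0.48, 0.22 and 0.15. The 12 genes of the mTOR complexes and of TSC and RHEB were called by neither edgeR nor DESeq2. DESeq2 called 4.15% of all genes higher and 4.25% lower. DEPTOR, an inhibitor of mTOR, had 0.19, 0.47 and 0.64 on 169 to 323 reads. RICTOR of mTORC2 had -0.13, 0.67 and -0.27, and the mTORC1 genes AKT1S1 and RPTOR had 0.36, 0.35 and 0.12 and -0.20, 0.15 and -0.29.

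In the AMPK group of 11 genes, DESeq2 called 1 subunit gene lower and 1 higher, against 4.25% and 4.15% of all genes. PRKAA2, a catalytic subunit, went from 23606 to 13074 reads in H460, 2046 to 1382 in H1299 and 2200 to 1510 in A549, log2 fold changes of -0.77, -0.43 and -0.69 (edgeR adjusted p = 0.107, DESeq2 9.84e-05). PRKAB2, a beta subunit, had 0.31, 1.04 and 0.67 (edgeR adjusted p = 0.157, DESeq2 0.00644). The other beta subunit PRKAB1 had -0.36, 0.35 and 0.26, and CAB39, a partner of the AMPK kinase LKB1, -0.12, 0.44 and -0.20. Of the 13 peroxide and autophagy partners, 0 were called by either tool, next to the same shares of all genes in DESeq2. The mitochondrial peroxiredoxin PRDX3 had 0.02, -1.26 and -0.79, SQSTM1 of selective autophagy -0.02, 0.48 and -0.32 and the NRF2 repressor KEAP1 0.42, 0.08 and 0.32. The cytosolic peroxiredoxin PRDX2 had 7279 and 8863 reads in H460 and only 0 to 11 reads in the libraries of H1299 and A549.

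**Figure D5:**
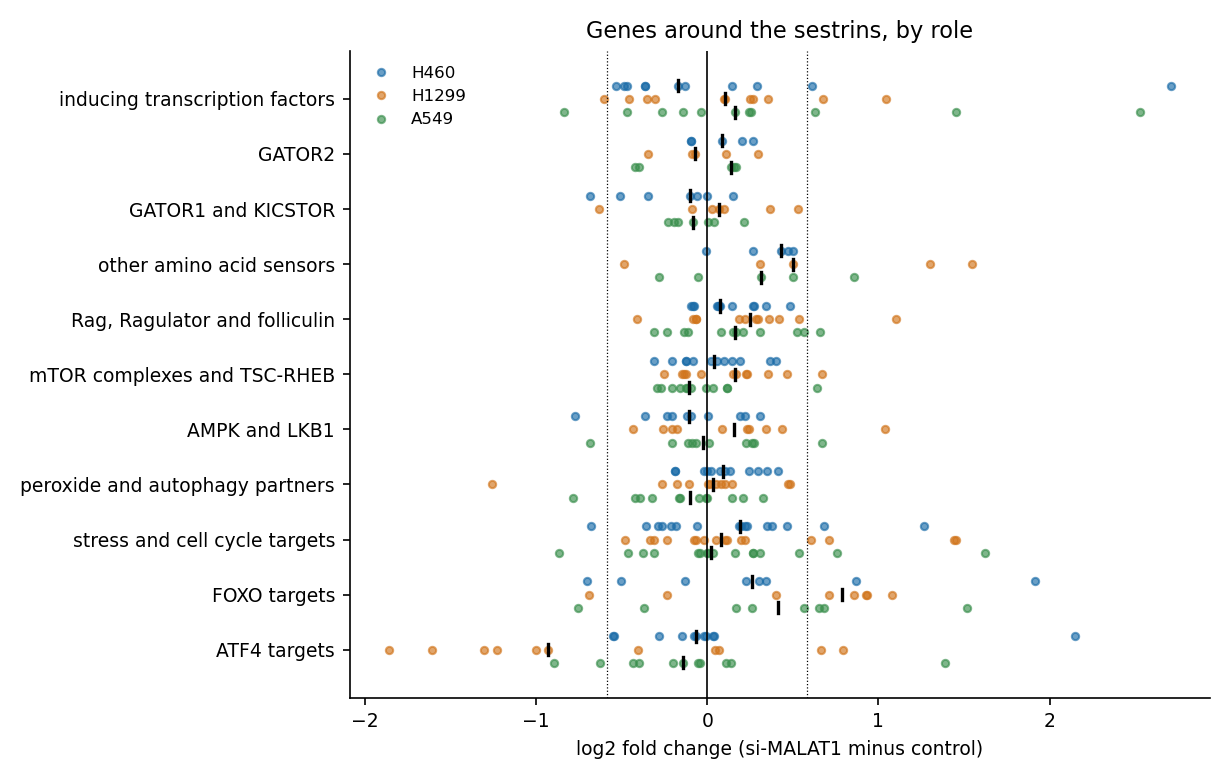
Log2 fold change of every list member with a read in all libraries, by list and cell line (points), with the median of each list and line (black marks) and dotted lines at 1.5-fold. The ATF4 target median of -0.93 and the FOXO target median of 0.79, both in H1299, stand farthest from 0.

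The genes with profiles most like each sestrin over the 6 libraries were found by the largest gap between the log2 scaled counts, each centred on its own mean. For SESN1 these were SNN, B4GALT5, PDE7A, MST1R and ATL3, with largest gaps of 0.28 to 0.44. SNN, which encodes the small membrane protein stannin, had log2 fold changes of 0.95, 0.97 and 1.38, close to the 0.96, 0.82 and 1.36 of SESN1. For SESN2 they were CKMT1B (a mitochondrial creatine kinase), GJA3 (a gap junction protein), SMPD1 (acid sphingomyelinase), ZSWIM5 and ING3, with gaps of 0.26 to 0.43. CKMT1B has a near-identical neighbour, CKMT1A, so its count is uncertain. SESN3 had no gene as close, with CD70 (a TNF family ligand), CLDN4 (a tight junction protein), RAPGEF4, EPPK1 and BCL2 at gaps of 0.44 to 0.70. Those 5 genes share with SESN3 the high level in H460, where CD70 had 6876 and 6197 reads against 254 and 331 in A549. The points share the 6 libraries, and the likeness is a description.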

How the data were processed

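RNA-seq had been performed on 6 libraries from NSCLC cell lines, grouped by the sample labels, with 42506818 to 68515992 reads counted on genes in each. Reads were trimmed and aligned by the authors to hg38 with HISAT2 2.1.0, and StringTie on an NCBI gene annotation gave the deposited read counts, FPKM and TPM per gene. Counts were deposited as whole numbers without normalization, whereas for FPKM and TPM the authors had corrected for length of transcripts and depth. Another 18 columns of the table hold values of samples other than these 6, from cell lines that the series' labels do not name, and were not used.

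Within a line, fold changes were taken between the RLE-scaled counts, with 1 added, on the log2 scale. A fold of 1.5 was the call, and exact 95% Clopper-Pearson intervals cover counting error only. Both libraries of a line come from the same cell line and were paired. The quasi-likelihood test of edgeR 4.0.16 had cell line and treatment as terms, with TMM, filterByExpr and a Benjamini-Hochberg adjusted p under 0.05, and left 2 residual degrees of freedom. DESeq2 1.42.0 on the same genes was the alternative. The edgeR step was run on simulated counts with less spread between libraries than these data. That run was a check of the code and does not show how the test performs here. The members and the lists were chosen with earlier results of these data known. Genes named are the sestrins, MALAT1, the neighbours, the 5 closest profiles per sestrin with a mean count of at least 50 and, per list, members past 1.5-fold in the 3 lines plus up to 4 with the largest mean change and the same minimum count. Cell type markers and other exceptions are named as such, and some items that the rule covers are not reported here. R 4.3.3, Python 3.11.15, numpy 2.4.6, pandas 2.3.3 and scipy 1.17.1 were used.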

Additional observations from a re-analysis of the deposited data

Results flagged for a closer look

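SESN3 was flagged because its log2 fold change after si-MALAT1 had opposite signs in the lines, at 0.37 in A549 and at -0.51 in H460 and -0.95 in H1299. With 1 library per line and condition, the difference between the lines was not tested.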

How the results depend on the processing

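The direction of every sestrin in every line was kept under each other scaling and pseudocount tried. On log2(TPM + 1), the log2 fold change was 0.74 for SESN1 in H460 and 0.66 in H1299, 0.23 for SESN2 in H460 and 1.21 in A549, and -0.61 for SESN3 in H460, past 1.5-fold, and -0.64 in H1299. On log2(FPKM + 1), it was 0.80 for SESN1 in H460 and 0.58 in H1299, just under the 1.5-fold call on that scale. It was 0.65 for SESN2 in H1299 and 1.16 in A549, and -0.61 for SESN3 in H1299. At low levels the added 1 makes a fold change smaller in size. With nothing added, SESN1 in H1299 went from 2.80 to 4.67 FPKM, and its TPM ratio was 1.74, above 1.5-fold. SESN2 passed with DESeq2 (adjusted p = 0.0109), which called 563 genes higher and 577 lower, among them 12 and 7 list members, where edgeR called 0 and 1 gene. Without any filter on low counts edgeR called 0 genes lower, and the adjusted p of SESN2 between H460 and H1299 was 0.0602. Without the block for cell line, that is with the pairing ignored, edgeR called 0 genes in either direction and the adjusted p of SESN2 and of SESN3 was 1.0. Leaving out 1 line at a time gave 0 to 51 genes higher and 0 to 112 lower, the largest counts without H460, when 2 list members were called higher. List members higher in the 3 lines numbered 2 at 2-fold and 2 on log2(TPM + 1). With a pseudocount of 10, 2 of the 5 genes closest to SESN3 were shared. With 1 library per line and condition, a difference between cultures of a line cannot be told apart from an effect of the siRNA.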
